A study of Rattus norvegicus with 7 samples.

Results

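The untreated testes of adult rats served as the baseline of a study of cadmium in the testis, and their transcriptome is described here across genes. The members are the 3 arrays whose titles call them untreated testes, biological replicates 1 to 3, out of 7 arrays in all. The rats were adult males of the Sprague-Dawley stock, an outbred stock in which animals differ genetically, and these 3 had received no agent (0 h). The other 4 arrays came from rats of the same stock given cadmium chloride once, intraperitoneally at 3 mg/kg, and killed after 8 h (n = 2) or 20 h (n = 2), and they enter only where a hybridization day is described. Age beyond adulthood, the housing and the number of testes behind 1 array are not given in the sources used here, and a biological replicate is read as 1 animal. RNA came from the whole organ, so a low signal from fewer cells of a type and one from less RNA per cell cannot be told apart.

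Each value is the signal of a probe set, a group of short oligonucleotides that together measure 1 transcript on an Affymetrix rat genome array, in arbitrary linear units. The table held 31042 probe sets besides the controls. Of these, 20826 named 1 gene, and for the 14217 genes they named the probe set with the highest mean was used. The median signal was 71.9, 68.8 and 57.0 on untreated replicates 1, 2 and 3, and a gene is called above or below the median relative to that value on each array. Probe sets differ in how well they bind, so ranks between genes are a description only: 4525 genes had several probe sets, and among the 2326 of them whose brightest reached 200, the brightest was a median of 5.18 times as bright as the dimmest. No test was made, because the 3 arrays form 1 group. SDs are over 3 animals and describe only the spread between these arrays, and the number of arrays limits their precision.

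Untreated replicates 2 and 3 need a word before the results. The experiment file of replicate 2 gives mouse as its sample type, where its labels name a rat and its array type is the rat array. That array was stained at 25 °C for 600 s, against 35 °C for 300 s on the other two. Its signals correlated with those of replicate 1 at r = 0.976 across 18481 probe sets, while replicate 3 reached r = 0.957 with each of them. Replicate 3 stood apart: its 99th percentile was 6064 against 5005 and 4887, and its actin control gave a 3' signal above the 5' signal by 1.19 on the log2 scale, against 0.99 and 0.73, while the GAPDH control gave -0.14 against -0.12 and -0.21. The 3 arrays were hybridized on 3 different days, so animal and day cannot be told apart among them. Both 8 h arrays and 20 h replicate 2, hybridized on the day of untreated replicate 3, had 99th percentiles of 6165, 6221 and 6313. Their actin values were 1.42, 1.39 and 1.36. The array of 20 h replicate 1, hybridized on the day of untreated replicate 1, had 5317 and 0.92.

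The testis makes sperm inside seminiferous tubules, where Sertoli cells carry germ cells from dividing spermatogonia through meiotic spermatocytes to round and then elongating spermatids. In the elongating spermatid the histones of chromatin are replaced first by transition proteins and then by protamines, small basic proteins that pack the sperm nucleus, while the tail and the mitochondrial sheath are built. Between the tubules, Leydig cells make testosterone beside blood vessels and resident macrophages. Transcription stops as the nucleus condenses, so messages for late proteins are made early and stored, many of them under the activator CREM, which binds cyclic AMP response elements.

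The stretches upstream of 4 germ cell genes show where the exact letters of this element stand, or are absent, before genes all among the 25 brightest here. They are the 250 bases before the annotated start, 5′ to 3′ on the gene's strand, from RefSeq on the build GRCr8, and capitals mark TGACGTCA, the element, or the shorter TGACG on either strand. Tnp1 encodes transition protein 1 (chr9:82044279-82044528, minus strand).
Tnp1: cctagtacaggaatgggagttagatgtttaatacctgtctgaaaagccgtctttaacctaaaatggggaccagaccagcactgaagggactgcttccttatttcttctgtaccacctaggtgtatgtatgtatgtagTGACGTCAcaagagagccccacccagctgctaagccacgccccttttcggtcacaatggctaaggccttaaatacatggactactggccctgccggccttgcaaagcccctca
Prm1 encodes protamine 1 (chr10:5378490-5378739, plus strand).
Prm1: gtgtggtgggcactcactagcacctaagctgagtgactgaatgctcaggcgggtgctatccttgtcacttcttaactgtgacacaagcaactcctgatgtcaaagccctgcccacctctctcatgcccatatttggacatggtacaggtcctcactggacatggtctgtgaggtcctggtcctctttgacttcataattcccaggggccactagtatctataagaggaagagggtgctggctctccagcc
Tnp2 encodes transition protein 2 (chr10:5386485-5386734, plus strand).
Tnp2: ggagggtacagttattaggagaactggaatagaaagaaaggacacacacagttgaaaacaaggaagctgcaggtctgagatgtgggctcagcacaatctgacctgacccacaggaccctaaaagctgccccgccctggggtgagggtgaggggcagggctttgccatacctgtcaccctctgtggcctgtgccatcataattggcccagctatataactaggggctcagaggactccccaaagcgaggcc
Ldhc encodes the lactate dehydrogenase of germ cells (chr1:106522745-106522994, plus strand).
Ldhc: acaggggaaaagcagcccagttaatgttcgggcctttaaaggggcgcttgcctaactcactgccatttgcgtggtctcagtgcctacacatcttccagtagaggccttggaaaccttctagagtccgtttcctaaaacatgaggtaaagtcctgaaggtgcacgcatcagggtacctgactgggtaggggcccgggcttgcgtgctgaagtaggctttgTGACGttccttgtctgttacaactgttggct
The Tnp1 stretch held the full element, its first base at position -113 relative to the start. The Ldhc stretch held the shorter motif, its first base at position -31. The stretches of Prm1 and Tnp2 held neither, which says only that these exact letters are not in these windows. Variants of the element were not searched for, and the Prm1 stretch held tgacttca, which differs from it in a single letter. Prm1, Prm2, Prm3 and Tnp2 lie next to each other on the chromosome in that order, with 1 long noncoding RNA gene between Prm3 and Tnp2.

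Over the whole annotated windows of 300 bases, which also take in 50 bases after the start, the element was found before few of the bright genes. It was found on either strand in 4 of the 82 windowed genes among the 100 brightest, or 4.88%: Cct4, Garin5a, Spata7 and Tnp1. The share was 2.93% of the 11700 named genes with a window and 2.00% of all 27457 genes of the promoter table. The shorter TGACG, which the full element contains, was in 26 of those 82 genes (31.7%) and in 30.1% of the named genes. The shares of TATAAA were 6.10% among the 100 brightest and 9.07% among the named genes, and those of CCAAT 40.2% and 38.6%. A gene counted when any of its annotated starts held the letters, and genes had up to 38 starts. Crem itself held the full element in a window, and its brightest probe set had signals of 2034, 1999 and 2383, close together on all 3 arrays. Its other probe sets had means from 25.4 to 774, and a dim set among them stood at 69.3, 65.9 and 23.3.

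Of the 25 brightest genes of untreated testis, 9 were on the list of elongating spermatid genes and 3 on that of germ cell energy isozymes. The latter list also holds the peroxidase Gpx4, which counts among the 3. Both lists were chosen with earlier results of these data known. Prm1 was the brightest of all, with signals of 20531, 16767 and 28324 on replicates 1, 2 and 3 and a mean of 21874 ± 5895 (SD, n = 3). Replicate 3 was the highest and replicate 2 the lowest for this gene. Smcp, a cysteine-rich protein of the sperm mitochondrial capsule, had signals of 15273, 14105 and 20282. Oaz3, the antizyme of haploid germ cells that controls polyamines, had signals of 14761, 13352 and 20588. Tnp1 had signals of 14539, 12999 and 20923, in the same order of arrays as Prm1. COX1 and COX2, subunits of cytochrome c oxidase encoded by mitochondrial DNA, came second and sixth, with signals of 13479.9, 14755 and 21723 for COX1. COX2 stood at 14671, 13353 and 19935. Both were brightest on replicate 3, but COX1 was dimmest on replicate 1 and COX2 on replicate 2.

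Gsg1, a membrane protein of germ cells, had signals of 13193, 12892 and 21697, with the largest CV of the 25 (31.4%). Odf1 and Odf2 are proteins of the outer dense fibres that stiffen the tail. Odf1 stood at 13407, 12464 and 19624. Odf2 stood at 13403, 12657 and 18915 on its brightest probe set. Its next probe set stood at 886, 785 and 570, lowest on replicate 3, and another had a mean of 15.4. Gpx4, the selenium peroxidase that also forms part of the mitochondrial capsule of sperm, had signals of 14316, 13118 and 19182. On the brightest probe set of each of these genes replicate 3 was above the other arrays, which lay close together. Crisp2, a secretory protein of the acrosome and tail, had signals of 13354, 12254 and 18521. Hspb9, a small heat shock protein of germ cells, had signals of 12659.7, 11798 and 20199. Cmtm2a had the smallest CV of the 25, 10.1%, with signals of 11845, 11717 and 13964. The remaining genes of the 25 were Pebp1, Spata6, Fam229b, Gstm5, Tnp2, Gapdhs, Fabp9, Psma6, Tubb4b, Ldhc, Morf4l1 and Dnaaf1, with means from 11636 to 14595.

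**Figure D1:**
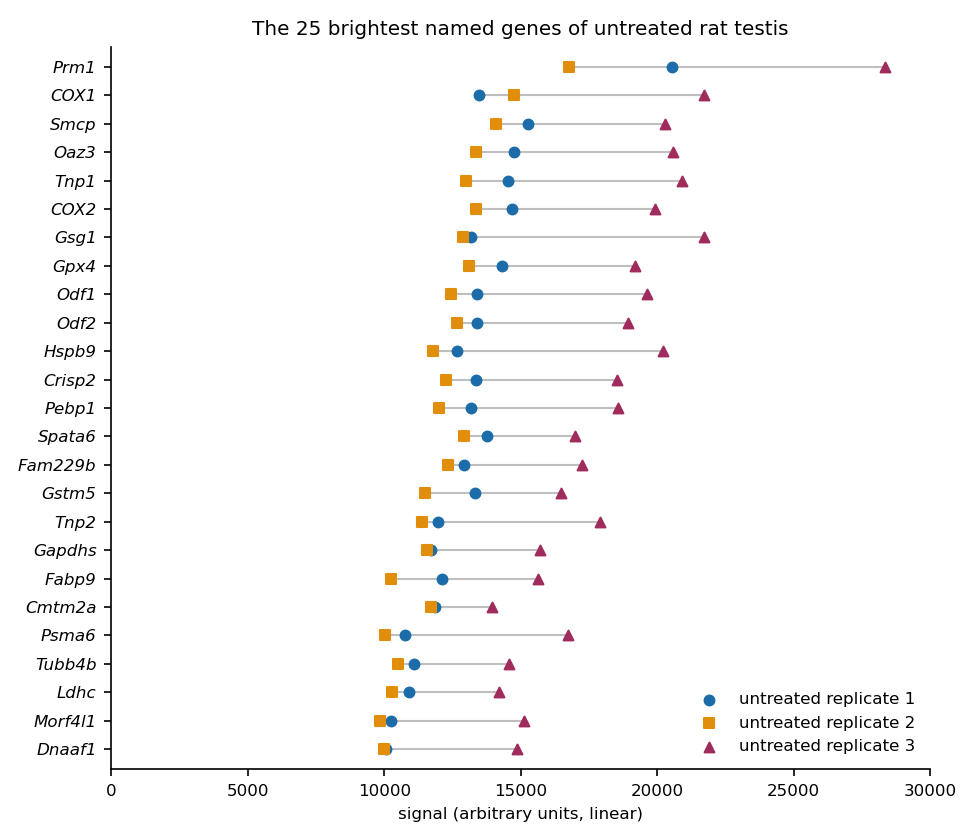
Signal on a linear scale in arbitrary units (horizontal axis) of the 25 brightest named genes, 1 gene per line, with a point for each untreated array and a grey line over their range. Replicate 3 lies to the right for all 25 genes and replicate 2 to the left for 24 of them; after quantile normalization replicate 3 was the highest for 38 of the 100 brightest genes.

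Membership of the top was stable while the height was not. Of the 100 brightest genes of each array, 86 were shared by all 3 arrays. Among the 100 brightest by mean, 98 were highest on replicate 3, against 36.3% of all named genes; after quantile normalization, which gives the arrays 1 common distribution, it was 38 of 100. The CVs of the 25 brightest ran from 10.1% to 31.4% with a median of 22.8%. Of the 25, 12 belonged to any of the 18 lists and the others to none. Of the 100 brightest probe sets, 78 named 1 gene, and the others are not described by name. The 100 brightest probe sets carried 9.30%, 8.93% and 11.5% of the summed signal on replicates 1, 2 and 3. In all, 1833 named genes reached 1000 on all 3 arrays and 24 reached 10000.

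The germ cell lists lay in the order of differentiation, from the dim spermatogonial genes to the elongating spermatid genes among the brightest of the array. The lists were chosen with earlier results of these data known, so this order and the counts below are no independent support. The position of a list is given by the percentile of its median member among all 14217 named genes (mean over the 3 arrays), and beside it by the number of members above the median on all 3 arrays, which 62.0% of all named genes were. The median spermatogonial member lay at percentile 30.5 ± 3.30 (SD, n = 3), and 5 of 13 measured members were above the median on all 3 arrays. The median spermatocyte member lay at percentile 88.3 ± 1.88, with 11 of 14 members above. Round spermatid genes had their median member at percentile 95.2 ± 0.39, with 16 of 16 above. Elongating spermatid genes had it at percentile 99.4 ± 0.033, with 26 of 26 above and 13 of them among the 100 brightest. Members not matched to a probe set here, among them Zbtb16, Ddx4 and Pgk2, were left out, and the lists rest on different probe sets, so the order of percentiles describes these genes and not numbers of cells.

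Among spermatogonial genes the brightest was Uchl1, a ubiquitin hydrolase of spermatogonia and neurons, with signals of 786, 889.8 and 1057. Id4, a regulator of spermatogonial stem cells, had signals of 665, 656 and 654, almost the same on every array. Gfra1, the receptor through which GDNF from Sertoli cells keeps stem cells, had signals of 335, 944 and 357. For Gfra1 replicate 2 was the high array and the other two were close, and a second probe set of the gene showed the same order of the high array at 55, 82.7 and 57.9. Dmrt1, a transcription factor of spermatogonia and Sertoli cells, stood at 132, 218 and 162. Etv5, a transcription factor of stem cell renewal, stood at 86.1, 86.1 and 142, high on replicate 3. Kit, the receptor of differentiating spermatogonia, had signals of 91.4, 74.1 and 47.4, near the array medians. Lin28a, Upp1, Nanos3 and Sall4 had means from 4.83 to 22.2, below the median of every array, where the order of single values carries little weight.

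The brightest spermatocyte genes were Ybx2, Hspa2, Sycp3, Stag3 and Ccna1. Ybx2, which stores messenger RNA in germ cells, had signals of 9872, 8747 and 7626. Hspa2, the chaperone needed in meiosis, had signals of 7192, 6611 and 5273. Sycp3, a protein of the lateral element of the synaptonemal complex that pairs chromosomes, had signals of 6094, 4370.1 and 5125. Ybx2 and Hspa2 were lowest on replicate 3, whereas for Sycp3 the lowest was replicate 2. Stag3, a meiotic cohesin, stood at 3284, 2946 and 3131, a CV of 5.43%. Ccna1, a cyclin of meiosis, stood at 2415, 2475 and 3221. Sycp1, which forms the transverse filaments of the same complex, had signals of 586, 395 and 154, 3.80-fold apart between replicate 1 and replicate 3. Spo11, the enzyme that cuts DNA to start recombination, had signals of 227, 203 and 209, close on all arrays. Msh5, a meiotic mismatch repair protein, had signals of 93.2, 60.5 and 30.5, near or below the medians. H1f6, the testis linker histone, was the dimmest at 34.4, 38.9 and 46.4.

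Round spermatid genes held the acrosome and the fertilin family. Adam3a, a sperm surface protein of the ADAM family, had signals of 7759, 8097 and 10722. Tssk2, a testis kinase, had signals of 7535, 7065 and 9683. Insl6, a relaxin-like peptide of germ cells, had signals of 4553, 5306 and 7510.4 and the largest range on the list. All of these genes were highest on replicate 3. Adam2, a fertilin subunit, stood at 4118, 4470.2 and 6489.6, likewise highest there. Acr, the protease acrosin, went the other way, with signals of 2144, 2277 and 1675. Spam1, the hyaluronidase of the sperm head, stood at 3008, 2759 and 2319, also lowest on replicate 3. Tbpl1, a relative of the TATA-binding protein, had signals of 5074, 5023 and 5421, a CV of 4.18%. The dimmest measured member, Catsper2 of the sperm calcium channel, still had signals of 711, 738 and 534.

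Elongating spermatid genes outside the top 25 covered the chromatin and the tail. Prm2, the other protamine that packs DNA, had signals of 9802, 8416 and 12173. Prm3 had signals of 7164, 6819.8 and 7710.3, with a smaller CV (6.21%) than Prm1 (26.9%). Akap4, a major protein of the fibrous sheath of the tail, had signals of 9009.9, 8969 and 12272. Replicate 3 was the highest for each of these genes. Tekt1, of the tektins that form filaments with tail microtubules, had signals of 5997, 6364 and 8233. Tekt5, another tektin, had 973, 1189 and 1008. Capza3, the actin-capping subunit of spermatids, stood at 7540.0, 7452 and 7816, a CV of 2.49%. Ropn1l, a protein of the sperm flagellum, had the largest range, with signals of 6466, 4659 and 8083. Cabyr, a calcium-binding protein of the fibrous sheath, was the exception in level, with signals of 82, 71.4 and 76.6, just above the array medians. Of the 26 members, 24 reached 1000 on all 3 arrays.

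Germ cells use their own isozymes for energy. All 10 measured genes of that list lay above the median on all 3 arrays, with the median member at percentile 99.2 ± 0.15 (SD, n = 3). The list also held Gpx4, its brightest member, and Spata19, which are not themselves such isozymes. Gapdhs, the glyceraldehyde phosphate dehydrogenase of the sperm tail, had signals of 11716, 11581 and 15694. Ldhc had signals of 10915, 10268 and 14214. The lactate dehydrogenase of other tissues, Ldha, was on the reference list at 6233, 5859.6 and 8097. Spata19, a mitochondrial protein of sperm, had signals of 9447, 9338 and 12950.0. Cox7b2 and Cox6b2 are the testis forms of cytochrome oxidase subunits. Cox7b2 stood at 7944, 7929 and 11116. Cox6b2 stood at 6277, 5997 and 6086. Cox6b2 varied little (CV 2.34%) while Cox7b2 was high on replicate 3. Pdha2, the pyruvate dehydrogenase subunit of meiotic cells, stood at 1423, 1502 and 1421. The dimmest was Slc25a31, the germ cell carrier of ADP and ATP, at 758, 925 and 841.

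Genes with a role in germ cells of all stages are described by 5 of 12 listed, those matched to a probe set here. All 5 lay above the median on all arrays. Ddx25, a helicase that carries messages to the chromatoid body, had signals of 4043, 4494 and 6732. Tdrd7 and Tdrd1 are tudor proteins of germ granules. Tdrd7 stood at 5795, 5133 and 7704. Tdrd1 stood at 3405, 3172 and 4041. Tex101, a surface glycoprotein of germ cells, stood at 2155, 2169 and 3103. Piwil2, which binds piRNAs, had signals of 817, 637 and 683.

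The median member of the Sertoli cell genes lay at percentile 74.1 ± 2.99 (SD, n = 3). Of 26 measured members 20 (76.9%) were above the median on all 3 arrays, against 62.0% of all named genes. Clu, the secreted chaperone clusterin, had signals of 7115, 8178 and 8673. The second probe set of Clu stood at 36.3, 42.6 and 38.5, below the median of every array. Cldn11, the claudin of the blood-testis barrier, had signals of 2715, 2997 and 3362. Its second probe set stood at 623, 814 and 312, dimmest on replicate 3, where the first was brightest. Aard, a testis protein named for its alanine and arginine residues, had signals of 4233, 4716 and 4906. Cst9l, a cystatin matched through its older symbol Cst9, had signals of 2324, 2398 and 3484. Tsx, a gene of the X chromosome, stood at 2058, 2298 and 2346. Among regulators, Wt1 had signals of 502, 492 and 362. Gata4 had signals of 328, 340.1 and 261. Inha and Inhbb are subunits of the hormone inhibin. Inha stood at 487, 639 and 485. Inhbb stood at 198, 226 and 253. Wt1 and Gata4 were lowest on replicate 3, whereas Inha was highest on replicate 2 and Inhbb on replicate 3.

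Some Sertoli genes were at the low end. Amh, the hormone that immature Sertoli cells secrete and that falls at puberty, had signals of 49.2, 43.6 and 54.8, below the median of every array. Gdnf, the ligand of Gfra1, was the dimmest at 10.9, 3.7 and 4.5. Krt18, a keratin of immature Sertoli cells, had the widest range at 22.6, 51.5 and 3.6, all of it below the median. Sox9 was not matched to a probe set here.

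Leydig cell genes covered the path from cholesterol to androgen. Their median member lay at percentile 67.3 ± 2.82 (SD, n = 3). Of 21 measured members 16 (76.2%) were above the median on all 3 arrays, against 62.0% of all named genes. Star, which carries cholesterol into mitochondria, had signals of 477, 561 and 952. Its second probe set, at 469.7, 507 and 613, kept the same order of arrays. Cyp11a1, which cuts the cholesterol side chain, stood at 878, 893 and 1102. Fdx1, the ferredoxin that feeds it electrons, stood at 1581, 1621 and 2230.0. Hsd3b1, the next enzyme of the path, had signals of 1696, 1534 and 1753. Cyp17a1, which makes the androgen precursors, had signals of 1116, 2239.5 and 2046. Replicate 1 was low for Cyp17a1, by 2.01-fold from the highest array, while replicate 3 was the high array for Star, by 2.00-fold from the lowest. Hsd17b3, the enzyme of the last step to testosterone, was dim at 71.4, 63.6 and 62.1. Insl3, the peptide hormone of Leydig cells, had signals of 1357, 1127 and 1828. Lhcgr, the receptor for luteinizing hormone, stood at 347, 436 and 464. Ephx1, an epoxide hydrolase, was the brightest on the list at 1966, 1854 and 2022. Sult1e1, the oestrogen sulphotransferase of Leydig cells, had the widest range at 12.2, 48.1 and 49.7, low on replicate 1 and below the median on every array. Gsta3, a glutathione transferase, was the dimmest at 2.5, 23.2 and 5.9.

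Peritubular myoid and smooth muscle genes lay lower. Their median member was at percentile 51.5 ± 1.67 (SD, n = 3). Of 14 members 9 (64.3%) were above the median on all 3 arrays, near the 62.0% of all named genes. Myh11, smooth muscle myosin, had signals of 752, 717 and 735, a CV of 2.42%. Myl9, a myosin light chain, stood at 863, 924 and 991. Mylk, the kinase of that light chain, stood at 583, 551 and 421. Cald1, the actin regulator caldesmon, stood at 309, 232 and 397, highest on replicate 3. Acta2, smooth muscle actin, had signals of 588, 738 and 439.9, lowest on replicate 3. Actg2, the enteric smooth muscle actin, had the largest range, with 163, 48.5 and 90, and was high on replicate 1. Lmod1, a leiomodin, was the dimmest at 50, 32.9 and 59.1. Peritubular cells and the walls of vessels share these genes, and the summed signals of the list were 4084, 4011 and 4014.

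Endothelial genes were dim on every array, and their summed signals were close, at 1768, 1749.6 and 1719 on replicates 1, 2 and 3. Single members were less even and differed in both directions. The SD of log2(signal + 15) had a median of 0.20 over the list, against 0.24 over all named genes. The median endothelial member lay at percentile 35.3 ± 1.99 (SD, n = 3). Of 21 measured members 9 were above the median on all 3 arrays, against 62.0% of all named genes. The brightest was Cldn5, the claudin of endothelial junctions, with signals of 241, 241 and 232, a CV of 2.28%. Rasip1, which shapes vessel lumens, stood at 157, 129 and 155. Ramp2, part of the adrenomedullin receptor, had signals of 149.8, 87.9 and 153. Eng, the coreceptor endoglin, stood at 134, 136 and 101. Ptprb, a receptor phosphatase of vessels, stood at 120.3, 99.9 and 119. For Ramp2 replicate 2 was low and for Eng replicate 3. Kdr and Flt1 are receptors for vascular endothelial growth factor. Kdr stood at 51.8, 59.5 and 55.7. Flt1 stood at 76.6, 105 and 148. Tek, the angiopoietin receptor, had signals of 91.3, 86.9 and 102. Kdr was below the median of every array, Flt1 and Tek above it. Pecam1, an adhesion molecule of endothelial junctions, had 32.5, 36.4 and 5.2, low on replicate 3 and below the median throughout. Plvap, the diaphragm protein of fenestrated vessels, was the dimmest at 16.5, 29.5 and 15.4. Cdh5 was not matched to a probe set here.

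Macrophage genes split into a few bright members and many dim ones, with summed signals of 6592, 6287 and 6319. The median member lay at percentile 41.7 ± 3.36 (SD, n = 3). Of 19 measured members 10 (52.6%) were above the median on all arrays, against 62.0% of all named genes. Aif1, a calcium-binding protein of macrophages, had the highest signals, 3766, 3275 and 3216. They made up most of each sum, so the sums mainly describe this gene. Those values came from a probe set whose name marks it as shared between transcripts, and the other probe set of the gene stood at 81.4, 76.4 and 49.9. Mrc1, the mannose receptor of resident macrophages, had signals of 818, 884 and 853, a CV of 3.86%. Adgre1, the F4/80 antigen, stood at 348, 321 and 363. Lyz2, lysozyme, stood at 330.1, 346 and 415. Csf1r, the receptor for colony stimulating factor, had signals of 128, 123 and 129. These genes were close together on the 3 arrays. Cd68 and Cd163, a lysosomal and a scavenger receptor by which testis macrophages are often stained, were below the medians. Cd68 stood at 34.3, 67 and 40.5. Cd163 stood at 52.3, 37.4 and 42.2. C1qb, a complement subunit, had the largest range on the list at 14.5, 35.5 and 108. Of its partners, C1qa stood at 118, 99.7 and 144. C1qc stood at 115, 90 and 118, so both were closer on the arrays than C1qb. Itgam was the dimmest at 7.8, 8.9 and 6.9.

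**Figure D2:**
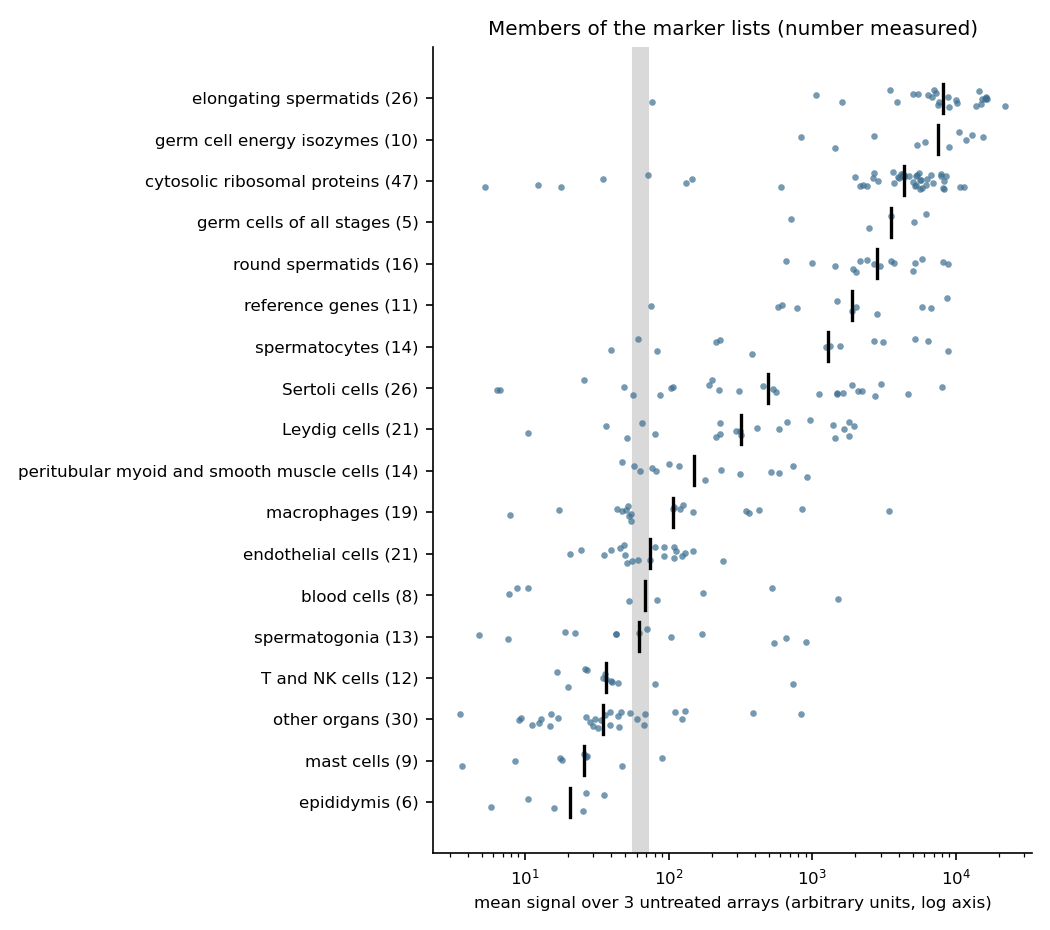
Mean signal over the 3 untreated arrays (horizontal log axis, arbitrary units) of each measured member of 18 gene lists, in order of the list medians, which are drawn as black bars; the grey band spans the medians of the 3 arrays, 57.0 to 71.9. Elongating spermatid genes lie at the top with a median of 8182 and epididymal genes at the bottom with 20.7, and the lists rest on different probe sets.

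Genes of cells that a testis sample could carry besides these were mostly at or below the medians. Of 12 T and NK cell genes 2 were above the median on all 3 arrays, and their summed signals were 1011, 1080 and 1325 on replicates 1, 2 and 3. Lck, a kinase of T cells, made up most of that sum with signals of 636, 626 and 945. Cd3e, a chain of the T cell receptor complex, had signals of 21.5, 44.6 and 42.8. Of 9 mast cell genes 1 was above, Tpsb2, a tryptase, at 82.9, 93.2 and 92.1. Of 8 blood cell genes 4 (50%) were above, against 62.0% of all named genes. The summed signals of the blood cell genes were 1818, 2769 and 2535. Hbb, a globin, made up most of each sum with signals of 1038, 1958 and 1541, lowest on replicate 1. The name of its probe set marks possible cross-hybridization. Alas2, the haem synthesis enzyme of red cell precursors, stood at 472, 527 and 571. S100a8, a neutrophil protein, stood at 17.2, 7.1 and 2.1. Of 15 listed epididymal genes 9 were not matched to a probe set here, among them Lcn5, Crisp4 and Gpx5, so most of that list was not seen. The 6 measured epididymal genes were above the median on all 3 arrays in no case. Their summed signals were 88.7, 138.8 and 132.0, and their highest mean was 35.3 for Teddm1a. Against the tissue named by the labels, all 16 measured round and all 26 elongating spermatid genes were above the median on all 3 arrays. So were 20 of 26 Sertoli, 16 of 21 Leydig and 5 of 13 spermatogonial genes, against 62.0% of all named genes. The measured epididymal genes lay below the array medians apart from Teddm1a on replicate 3.

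The list of 30 genes of other organs gives the level that unrelated genes reach. Of these, 5 (16.7%) were above the median on all 3 arrays, and the median member lay at percentile 20.2 ± 5.05 (SD, n = 3). Alb, liver albumin, had signals of 66.4, 80.5 and 55.2. Ckm, muscle creatine kinase, had signals of 8.2, 10.5 and 8.6. The bright exceptions were Myh1, a skeletal muscle myosin, at 919, 806 and 766, from a probe set whose name marks possible cross-hybridization, and Tnni3, cardiac troponin I, at 317, 381 and 457. Genes of other organs could thus reach signals above the median on this array.

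Genes for household functions were bright, as a scale for the rest. Of 47 cytosolic ribosomal protein genes 42 were above the median on all 3 arrays, and the median member lay at percentile 97.7 ± 0.42 (SD, n = 3). The brightest was Rpl39l1, a relative of ribosomal protein L39, with signals of 10379, 9499 and 14004. The probe set of Rpl39 itself stood at 123, 199 and 113. Rps29 had signals of 9574, 9454 and 12811. Paralogs and pseudogenes of ribosomal proteins can share probes, so single members are uncertain. Among 11 reference genes, Eef1a1, an elongation factor, had signals of 8385, 7699.6 and 9753. Eef2, another elongation factor, stood at 5570.2, 5415 and 6563. B2m, the light chain of class I molecules, stood at 2259, 2902 and 3298, lowest on replicate 1. Gusb, a glucuronidase, was the dimmest at 71.5, 65.3 and 88.8. Ywhaz, a 14-3-3 protein often used as a reference, differed most, with 2454, 2407 and 1221, 2.01-fold lower on replicate 3 than on replicate 1. Actb and Gapdh were not matched to a probe set here.

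Most genes differed little between the 3 animals. Among 18481 probe sets above the 40th percentile on at least 2 of the arrays, the SD of log2(signal + 15) had a median of 0.24, with a 25th percentile of 0.14 and a 75th of 0.37. Of these, 2060 (11.1%) differed by 2-fold or more between the highest and the lowest array and 170 by 4-fold or more. In 1464 of the 2060 the array farthest from the others was replicate 3, in 326 replicate 1 and in 270 replicate 2. Replicates 1 and 2 alone differed by 2-fold in 367 probe sets, replicates 1 and 3 in 1447 and replicates 2 and 3 in 1303. The 1447 were mostly lower on replicate 3, namely 1297 of them. When replicate 3 was left out and a probe set had to pass on both remaining arrays, 164 probe sets differed by 2-fold and the median SD was 0.12. Without replicate 1 the count was 668 and without replicate 2 it was 769.

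The departure of replicate 3 went with brightness. On a log2 scale, its difference from the mean of replicates 1 and 2 had a median of -0.19 in the fourth decile of mean signal, -0.0095 in the eighth, 0.078 in the ninth and 0.24 in the brightest. In the brightest decile 79.7% of genes were higher on replicate 3, against 46.5% of all named genes. The spread was largest among dim genes: 39.2% of the second decile and 0.70% of the brightest differed by 2-fold or more. The median of all named genes was -0.040 on the deposited scale, 0.055 after quantile normalization and 0.13 after scaling to 1 common 75th percentile.

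The gene lists followed this slope to different degrees. Elongating spermatid genes had a median difference of 0.46 on replicate 3, with 24 of 26 higher, and 0.22 once the median of genes of the same brightness decile was taken off; after quantile normalization it was 0.026. Round spermatid genes had 0.31, and 0.072 relative to the same decile. Energy isozymes had 0.36, a direction that quantile normalization turned to -0.035. Ribosomal protein genes had 0.42, with 41 of 47 higher, and 0.18 relative to the decile. Spermatocyte genes went the opposite way, with a median of -0.21, 10 of 14 lower and -0.37 relative to the decile. Quantile normalization gave them -0.36 and scaling to the 75th percentile -0.011. Leydig genes had 0.25, with 16 of 21 higher and 0.22 relative to the decile, and 0.25 after quantile normalization. Sertoli, endothelial and macrophage genes had -0.021, -0.054 and -0.0096, and these signs were not kept: scaling to the 75th percentile gave 0.16, 0.13 and 0.18. Replicate 3 also had the highest ratios of 3' over 5' signal in the actin and hexokinase controls, with log2 values of 1.19 and 0.91 against at most 0.99 and 0.49. For the GAPDH control it was not the highest, at -0.14 against -0.12 and -0.21. The cadmium arrays of the same day (both 8 h arrays, then 20 h replicate 2) had 1.42, 1.39 and 1.36 for actin. For hexokinase they had 0.83, 0.81 and 0.78, and for GAPDH -0.34, -0.099 and -0.13. The array of 20 h replicate 1, of the day of untreated replicate 1, had 0.92, 0.47 and -0.20 for these controls. The part of these ratios in the differences was not tested.

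**Figure D3:**
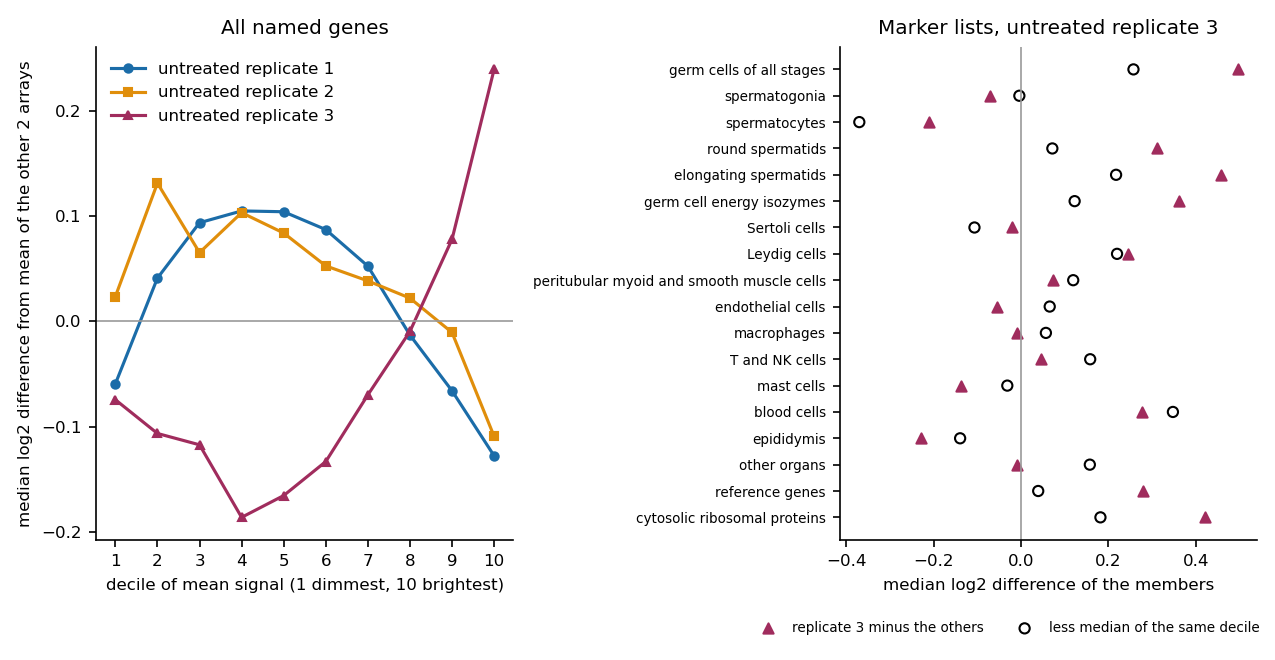
Left, median log2 difference of each untreated array from the mean of the other 2 (vertical axis) in 10 deciles of mean signal (horizontal axis); right, for 18 lists, the median difference of replicate 3 (triangles) and the same after the median of the brightness decile was taken off (circles). Replicate 3 runs from -0.19 in the fourth decile to 0.24 in the brightest, and spermatocyte genes are the lowest list once the decile median is taken off; after quantile normalization the medians of 6 lists had the other sign: energy isozymes, mast cells, spermatogonia, endothelial cells, macrophages and other organs, the last 4 of them within 0.1 of 0 before.

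The hybridization day can be set beside these differences through the cadmium arrays. Untreated replicates 3 and 1 were hybridized on days 3 and 1, and so were the replicates 2 and 1 of the 20 h group, which share no array with them. Across 18481 probe sets, the difference of day 3 minus day 1 in untreated animals and that in the 20 h animals had a Pearson r of 0.44 and a Spearman rho of 0.48, given as a description, since probe sets are not independent and the arrays of a day share their processing. The sign was the same in 68.7% of probe sets. Of the 1447 probe sets 2-fold apart between untreated replicates 1 and 3, 1211 (83.7%) had the same sign in the 20 h pair. Elongating spermatid genes had a median of 0.40 in both pairs. Leydig genes had 0.32 in untreated and 0.41 in 20 h animals. Spermatocyte genes had -0.31 in the untreated pair and -0.0094 in the 20 h pair. Some lists had opposite signs in the pairs. Among them, blood cell genes had 0.40 in the untreated and -0.75 in the 20 h pair, endothelial genes -0.017 and 0.23, and spermatogonial genes 0.076 and -0.12. The share of the summed signal held by the 100 brightest probe sets was 11.5% to 11.8% on the 4 arrays of day 3, untreated replicate 3 among them, and 9.30% and 9.19% on the arrays of day 1.

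**Figure D4:**
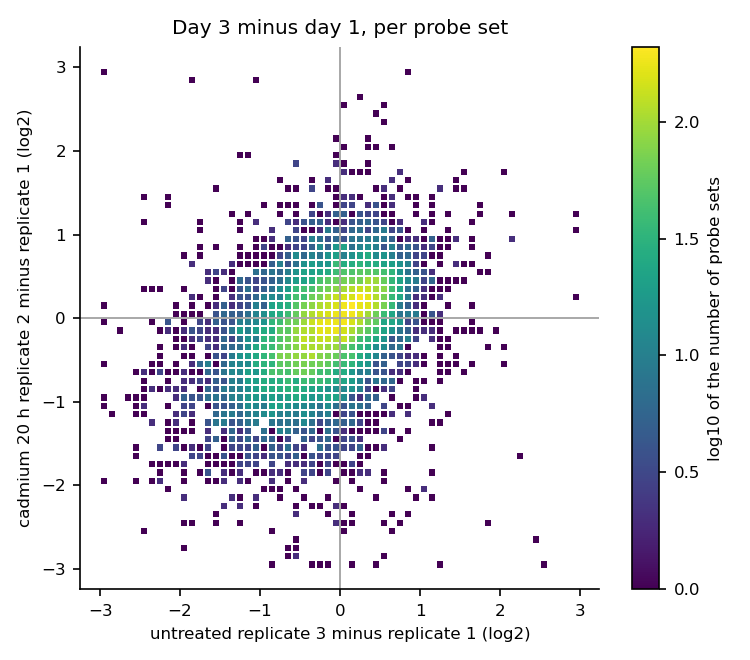
Log2 difference of day 3 minus day 1 for 18481 probe sets, in untreated animals (replicate 3 minus replicate 1, horizontal axis) and in animals 20 h after cadmium (replicate 2 minus replicate 1, vertical axis); colour gives the log10 number of probe sets per square, and differences beyond 3 are set at the edge. The cloud leans along the diagonal, with a Pearson r of 0.44.

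The genes that varied most between the untreated animals were chosen by the range of log2(signal + 15) among genes that reached 200 on at least 1 array. Calb2, the calcium-binding protein calretinin, which Leydig cells and neurons make, had signals of 4.4, 139 and 223. It was near the floor on replicate 1 and above the median on the others. RT1-Bb, a beta chain of the class II histocompatibility complex, had signals of 881, 707 and 86.9, low on replicate 3. Prss35, a serine protease, stood at 359.6, 29.4 and 29. Herc1, a ubiquitin ligase, stood at 711, 97.6 and 135. Both were high on replicate 1. On the day 1 array of the 20 h group the same probe sets stood at 288.9 for Prss35 and 487.4 for Herc1, and on its day 3 array at 20.8 and 159.3. On the 8 h arrays, both of day 3, Prss35 stood at 140.2 and 14.1, the first of them well above the other, and Herc1 at 173.0 and 145.9. Uhrf1, which copies DNA methylation after replication, had signals of 352, 285 and 48.8. Zmym5, a zinc finger protein, had 411, 196 and 57. Both were lowest on replicate 3. On the day 1 array of the 20 h group Uhrf1 stood at 207.7 and Zmym5 at 303.7. The day 3 cadmium arrays (both 8 h arrays, then 20 h replicate 2) were lower. Uhrf1 stood there at 89.4, 80.0 and 44.5 and Zmym5 at 78.7, 70.5 and 96.5. Nenf, a secreted neurotrophic factor, stood at 35.2, 219.5 and 15.4. Gpr4, a proton-sensing receptor, stood at 128, 232 and 23.6. Both were highest on replicate 2. For Gpr4 the day 1 cadmium array stood at 101.0 and those of day 3 at 31.8, 104.2 and 162.5, on both sides of it. The other 2 of these genes, LOC100910237 and RGD1565959, have no established name, and LOC100910237 had the largest range of all at 3.3, 233 and 219.9.

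**Figure D5:**
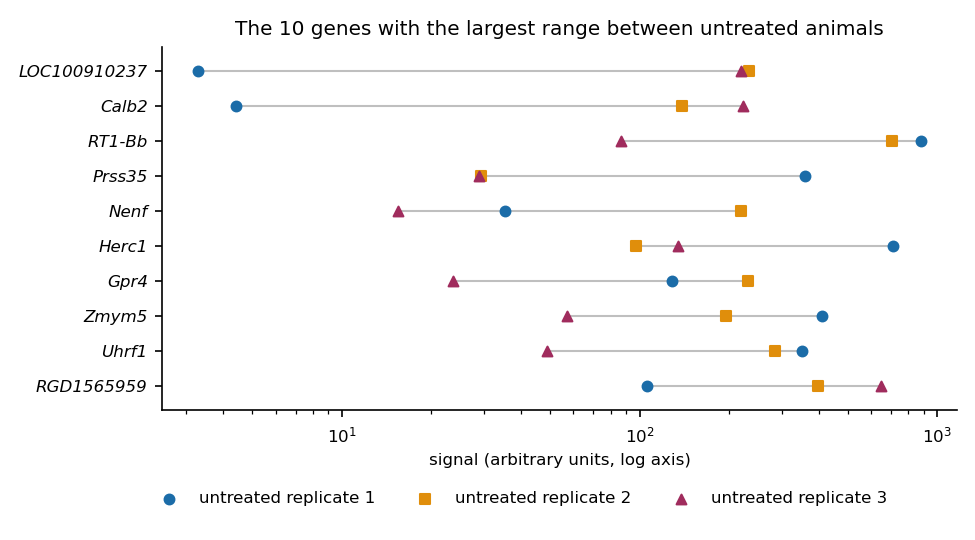
Signal on a log axis in arbitrary units (horizontal) of the 10 named genes with the largest range between the untreated animals, with a point per array and a grey line over the range. In each gene 1 array or more lies far from the rest, as for Calb2, at 4.4 on replicate 1 and 139.3 and 222.8 on the others.

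The most even genes, among the 5610 named genes that reached 200 on all 3 arrays, showed how close the arrays could come. Pip4p1, a phosphoinositide phosphatase of lysosomes, had signals of 294, 294 and 295, a CV of 0.11%. Trim41, a ubiquitin ligase, had signals of 649, 647 and 649.6. Cimap1b and Abhd8 followed with CVs of 0.31% and 0.40%. Kash5, which ties meiotic chromosomes to the motor dynein at the nuclear envelope, stood at 902, 895 and 901, a CV of 0.42%. Among so many genes, some come this close on 3 arrays, so their evenness is a description of these arrays.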

How the data were processed

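Gene expression was measured on 7 Rat230_2 arrays, of which the 3 untreated ones are described. Total RNA had been extracted with Trizol and RNeasy columns, per the labels' protocols. The deposited intensity values are 1 linear signal per probe set, made by the authors with MAS 5.0, and GeneSpring 7.2 is named beside it, per the submitters' notes. Their trimmed mean, without the lowest and highest 2%, was 250.0 on each untreated array, as after scaling to a target. The instrument's experiment files hold only settings and other run information, per the file headers, and gave the hybridization day, staining and sample type.

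Of 31099 probe sets 57 controls were left out. Of the rest, 20826 named 1 gene, 436 several and 9780 none, and 20758 of the first matched RefSeq by Entrez ID, with 0 symbols changed. A depth of reads does not exist for arrays; the number of arrays limits the precision. Values were analysed as log2(signal + 15) without further normalization (Python 3.11.15, pandas 2.3.3, numpy 2.4.6), with the steps tested on simulated data. Probe sets above the 40th percentile on at least 2 untreated arrays entered the spread. No contrast and no test was made. Named were the 25 brightest genes; of each of 12 lists (germ, somatic testis cells and reference genes) the 5 brightest, the dimmest and the one with the largest range; the rule named these also for the other 6 lists, of which only a few members are printed; the 10 most variable and the 5 most even genes; other genes in the text were chosen for their known role, some in that rule and some after values were seen. The members and lists were chosen with earlier results of these data known. The alternatives tried were quantile normalization, scaling to the 75th percentile, pseudocounts of 1 and 64, other filters, the mean over probe sets and leaving out each array. Promoter windows came from RefSeq on GRCr8.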

Additional observations from a re-analysis of the deposited data

How the results depend on the processing

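Of 394 values under 10 alternative settings for 59 results, 371 stayed within a limit set for their kind. For percentiles and list differences the limit was the spread between arrays. For counts it was a fixed ratio, and for the median SD and the correlation a fixed difference, so these were not held against a spread. A list median under 0.1 was not counted as turned when its sign changed, as under quantile normalization for spermatogonia (0.0098), endothelial cells (0.14), macrophages (0.11) and other organs (0.21). Quantile normalization gave differences of replicate 3 from the others of 0.18 for genes of all germ cell stages, 0.046 for round and 0.026 for elongating spermatids, 0.040 for reference genes and 0.12 for ribosomal proteins. It turned energy isozymes to -0.035 and mast cell genes to 0.036. Scaling to the 75th percentile gave macrophage genes 0.18, and a pseudocount of 1 gave epididymal genes -0.81. With the mean over the probe sets of a gene, percentiles were 97.1 for genes of all germ cell stages, 99.5 for elongating spermatids and 47.8 for peritubular genes. A pseudocount of 64 gave a median SD of 0.19, 644 probe sets 2-fold apart and a correlation between the day pairs of 0.49. With no filter on dim probe sets there were 5478 such probe sets and a correlation of 0.31, and with a filter at the 60th percentile 900.0 and 0.53. Leaving out each array in turn gave 164 to 769 probe sets 2-fold apart and a median SD of 0.12 to 0.22, the lowest of each without untreated replicate 3. No paired analysis was possible because 1 group is described and no result comes from a test. The cause of these changes was not tested. Signals near the array medians carry no detection call here, so a dim gene is only said to be dim.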

Other observations

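Class II histocompatibility genes, which present peptides on macrophages, dendritic cells and B cells, were looked up after RT1-Bb had been seen low on replicate 3 among the most variable genes, so their values are no independent support. Of 12 probe sets of 7 such genes, counting Cd74, 8 were lowest on replicate 3. Of all named genes, taken with 1 probe set each, 42.5% were lowest there, so the shares are not counted alike. The 12 include the probe set of RT1-Bb that prompted the search. The second probe set of RT1-Bb stood at 761, 717 and 9.4 on replicates 1, 2 and 3, low on replicate 3 like the first. RT1-Db1, a beta chain of the other class II molecule, had signals of 510.1, 454 and 89.4 on its brighter probe set and 183, 160.0 and 15.2 on its dimmer one, again low on replicate 3. RT1-Da, the alpha chain that pairs with it, had signals of 184, 237 and 255 and was not low there. The 4 probe sets of RT1-Ba, the alpha partner of RT1-Bb, went different ways: 3 were lowest on replicate 3, such as 153, 137 and 71.9, and 1 was highest there, at 14.5, 42 and 183. Cd74, the invariant chain that travels with class II molecules, had signals of 379, 481 and 424, and RT1-DMa stood at 69, 80.8 and 36.9, lowest on replicate 3. RT1-DMb stood at 101, 104 and 103, close on all 3 arrays. On the cadmium arrays the probe set of RT1-Bb with the largest range stood at 3.1 and 1413 in the 8 h animals and at 1210.1 and 1324 in the 20 h animals.

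The genes that follow were picked from the 100 brightest outside the lists after their values were seen. Hils1, a linker histone of spermatids, had signals of 9911, 9102 and 14444, highest on replicate 3 as most bright genes were. Aqp7, the glycerol channel of the sperm tail, stood at 6998, 6881 and 9817, and Tcp11, a sperm protein, at 9633, 9595 and 11922. Hk1, the hexokinase of which sperm carry a form, had signals of 9967, 9557 and 11599.6. Crat, carnitine acetyltransferase, stood at 6957, 7351 and 10311. Phkg2, the testis and liver subunit of phosphorylase kinase, was even over the arrays at 8619, 8994 and 8609. The chaperonin subunits Cct4 and Cct5 had signals of 7327, 7058 and 9582 and of 6635, 6833 and 11405, both high on replicate 3.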
